A study of Mus musculus with 1 sample.

Results

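The Hox cluster genes are the homeobox genes of the mouse HoxA, HoxB, HoxC and HoxD clusters. They were taken from the control library as every symbol made of Hoxa, Hoxb, Hoxc or Hoxd and a number, which gave 39 of 22631 features: 11 *Hoxa*, 10 *Hoxb*, 9 *Hoxc* and 9 *Hoxd* genes. The study examined fetal mouse testes whose Sertoli cells had lost *Nr5a1*, and the cells described here are its controls. They came from 12 control testes pooled into 1 suspension and labelled WT. The labels give embryonic day 14.5, and the study's text also names an earlier day for the suspensions. The methods name fetuses with the *Nr5a1* L2/L2 alleles and no Cre transgene as controls. The mutant library was not analysed here. With 1 library there was no replicate and no test between conditions, cells of different fetuses could not be told apart, and every interval below is an exact 95% interval of the counts that covers counting error only.

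HOX proteins are homeodomain transcription factors that give cells along the head-to-tail axis their positional identity. Genes with the same number in different clusters are paralogues, and within a cluster low numbers are expressed early and anteriorly and high numbers late and posteriorly. HOX proteins bind DNA together with TALE cofactors of the PBX and MEIS families. The gonad forms on the coelomic surface of the mesonephros, at a trunk level where middle and posterior Hox genes are known to be active, and *Hoxa10* and *Hoxa11* are known for their roles in the reproductive ducts and the kidney.

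The 39 genes lie in 4 compact clusters on GRCm38 (GENCODE M21), and each was matched there by identifier and symbol. HoxA spans chromosome 6, 52155590 to 52260880 on the minus strand. HoxB spans chromosome 11, 96194316 to 96368256, HoxC spans chromosome 15, 102921103 to 103036852, and HoxD spans chromosome 2, 74668310 to 74765142, all on the plus strand. The 10 antisense and other non-coding genes of the clusters named in the annotation, such as *Hotair* and *Hottip*, have no row in the matrix used and were not analysed here.

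The library held 72595083 UMIs, molecules counted once by their molecular index, and 54352032 of them were in the 3814 cells kept, with a median of 12026 per cell. The cells formed 15 clusters, named from marker genes with all Hox genes left out of the clustering. There were 862 Sertoli-like, 1356 interstitial-like, 517 peritubular myoid-like, 305 Leydig-like, 161 coelomic epithelium-like, 110 perivascular-like, 42 endothelial-like, 34 immune-like, 81 erythroid-like and 249 germ-like cells, and 2 clusters of 84 and 13 cells without a name. Median depth ran from 3776 UMIs in erythroid-like to 35820 in germ-like cells, so levels are given as CPM, the UMIs of a gene per 1000000 UMIs of the class. Each UMI marks the 3′ end of a transcript, and CPM was not divided by gene length.

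Hox RNA was found in each somatic class of the gonad, at levels that differed widely between classes, and was low in germ-like cells. All 39 together gave 19163 UMIs. Their summed level was highest in coelomic epithelium-like cells, the surface layer of the gonad, at 801 CPM (769 to 834). Peritubular myoid-like cells, the contractile cells around the cords, had 672 CPM (652 to 691), interstitial-like cells 617 CPM (603 to 630.0) and perivascular-like cells 605 CPM (564 to 647). The intervals of the interstitial-like and perivascular-like levels overlapped, and the others did not overlap with each other.

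The level was lower in the other classes. Endothelial-like cells had 267 CPM (230.2 to 307) and Leydig-like cells, which make androgens, 222 CPM (209 to 234), with intervals that overlapped. Sertoli-like cells, the supporting cells inside the cords, had 73.0 CPM (68.4 to 77.8). Germ-like cells had 16.9 CPM (14.2 to 19.9) and immune-like cells 17.6 CPM (8.03 to 33.3), and these intervals overlapped. Without the removal of doublets the germ-like level was 27.3 CPM and the Sertoli-like level 92.4 CPM. Erythroid-like cells had 105 CPM from 55 Hox UMIs, but they also held 6079 CPM of the 11 Sertoli markers and a median of 3776 UMIs, and whether RNA of other cells accounts for their Hox level was not tested.

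**Figure D1:**
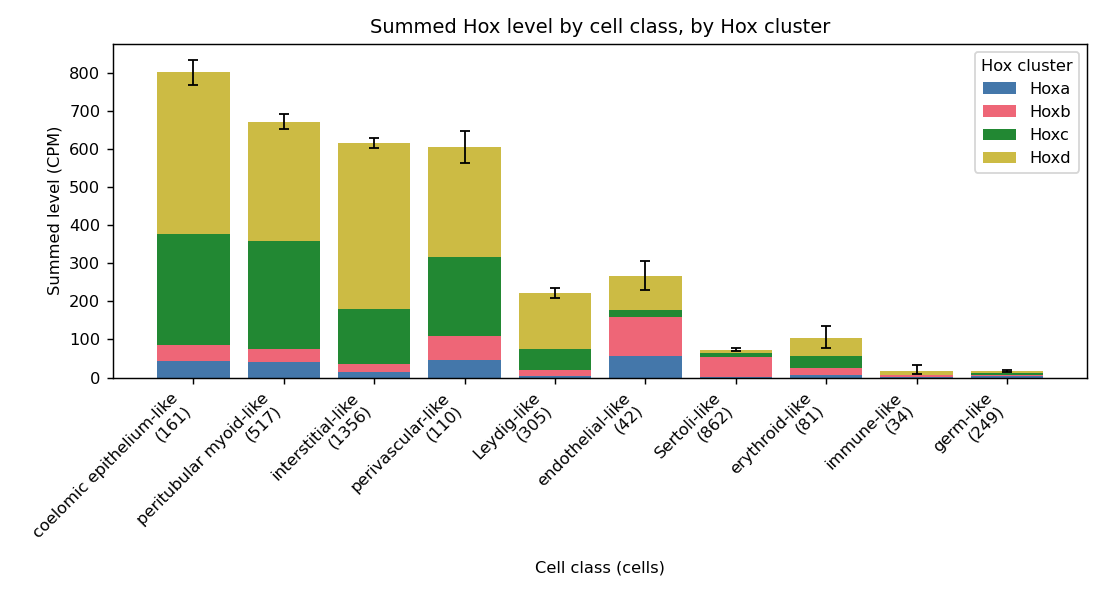
Summed level of the 39 Hox genes in CPM (y axis) for each cell class (x axis, number of cells in brackets), stacked by Hox cluster, with the exact 95% interval of the whole sum. *Hoxd* (yellow) fills most of the bar in interstitial-like cells, *Hoxb* (red) in Sertoli-like cells, and the germ-like and immune-like bars stay under 20 CPM.

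RNA from broken cells can reach every droplet, so the Hox levels are set beside those of interstitial markers. The 6 interstitial markers, *Pdgfra* and *Nr2f2* among them, stood at 1.14% of their interstitial-like level in Sertoli-like cells and at 1.16% in germ-like cells. The summed Hox level stood at 11.8% of its interstitial-like value in Sertoli-like cells and at 2.74% in germ-like cells. In Sertoli-like cells the share differed between Hox genes. It was 1.53% for *Hoxd9* (1.11 to 2.06), 13.2% for *Hoxc9* (8.42 to 19.9) and 675% for *Hoxb9* (543 to 848), beyond their intervals. Among the Hox genes that reached 10 CPM in a class of at least 100 cells, *Hoxb2* had the lowest share, 0% (0 to 6.38). After *Hoxb9*, *Hoxa7* had the highest, 17.6% (8.68 to 32.7).

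The HoxD and HoxC clusters supplied most of the Hox RNA. In the 3311 cells of the gonadal somatic classes (Sertoli-, Leydig-, interstitial-, peritubular myoid-, coelomic epithelium- and perivascular-like), *Hoxd* genes gave 58.0% of 18256 Hox UMIs, *Hoxc* 30.03%, *Hoxb* 8.11% and *Hoxa* 3.82%. The order was not the same in every class. *Hoxd* gave 70.8% in interstitial-like cells, but *Hoxc* came close to it in peritubular myoid-like cells, with 42.3% against 46.6%. *Hoxb* led in Sertoli-like cells with 70.2%. In the 42 endothelial-like cells *Hoxb* also had the largest share, 38.2%, but from few UMIs, with 23 of *Hoxb9* beside 28 of *Hoxd8*. Whether this smaller lead exceeds counting error was not tested.

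By position along the clusters, paralogues 9 to 13 gave 50.2% (49.5 to 50.9) of the Hox UMIs of these somatic classes, paralogues 4 to 8 gave 47.0% and paralogues 1 to 3 gave 2.83%. The posterior end of the clusters was hardly detected at this depth: the 6 genes numbered 12 or 13 gave 3 UMIs in all 3311 cells. Sertoli-like cells had the highest share of paralogues 9 to 13 (76.3%), with *Hoxb9* giving 610 of these 719 UMIs, and endothelial-like cells the lowest among classes with over 100 Hox UMIs (26.7%).

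**Figure D2:**
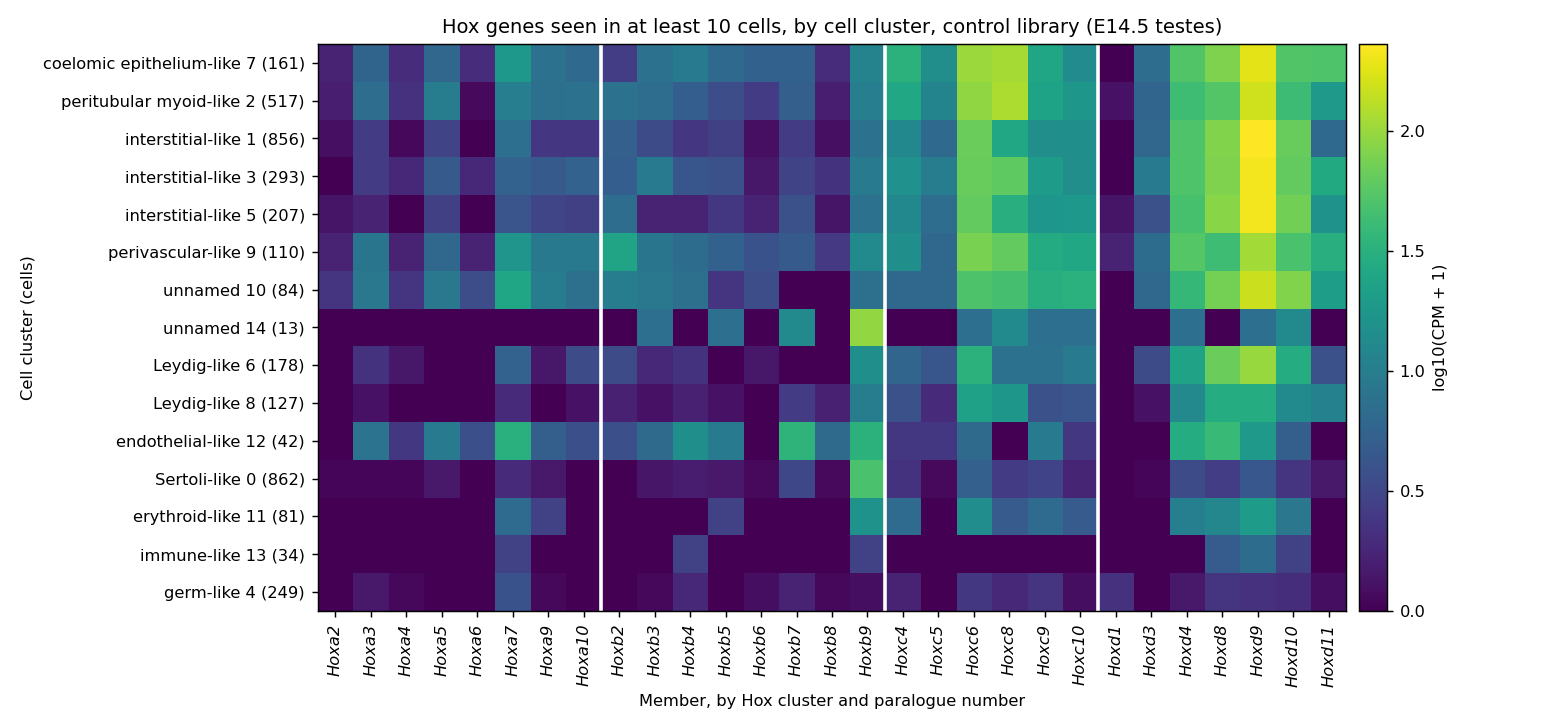
Level of the 29 Hox genes seen in at least 10 kept cells (columns, by cluster and paralogue number) in the 15 cell clusters (rows, with the number of cells), as log10 of CPM plus 1. Bright columns mark *Hoxd4* to *Hoxd11* and *Hoxc4* to *Hoxc10*, *Hoxb9* is the brightest gene in Sertoli-like cells and in the unnamed cluster of 13 cells, and most *Hoxa* columns are dark.

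In the HoxD cluster *Hoxd9* had the highest level in each gonadal somatic class, whereas in endothelial-like cells *Hoxd8* and *Hoxd4* exceeded it. *Hoxd9* was the most abundant Hox gene, with 5264 UMIs in 1967 cells. Its level was 223 CPM (215 to 231) in interstitial-like, 184 (169 to 199.7) in coelomic epithelium-like, 154 (145 to 164) in peritubular myoid-like, 108 (91.0 to 127) in perivascular-like and 59.0 (52.8 to 65.7) in Leydig-like cells. Endothelial-like cells had 18.2 CPM, Sertoli-like cells 3.41 and germ-like cells 1.16. The intervals of the upper 5 classes did not overlap.

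*Hoxd8*, on the anterior side of *Hoxd9*, was at 82.0 CPM (77.2 to 87.0) in interstitial-like and 79.7 CPM in coelomic epithelium-like cells, which did not differ beyond their intervals. It was at 52.6 CPM in peritubular myoid-like, 44.5 in Leydig-like, 41.3 in perivascular-like and 39.1 in endothelial-like cells, and at 1.71 CPM in Sertoli-like cells and 1.28 CPM in germ-like ones. In Leydig-like cells *Hoxd8* was at 1.14 times its level over all kept cells, the highest such ratio of a Hox gene there, and the sum of all Hox genes was at 0.629 times. *Hoxd4* was more even, between 41.4 CPM in peritubular myoid-like and 53.9 CPM in perivascular-like cells, with 49.9 CPM in interstitial-like, 52.3 in coelomic epithelium-like, 27.9 in endothelial-like, 16.3 in Leydig-like, 2.56 in Sertoli-like cells and 0.465 in germ-like ones.

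On the posterior side, *Hoxd10* was highest among the named classes in interstitial-like cells at 65.3 CPM (61.0 to 69.7), and the unnamed cluster of 84 cells had 82.3 CPM (63.2 to 105). It was at 52.0 CPM in coelomic epithelium-like, 48.0 in perivascular-like, 40.8 in peritubular myoid-like, 19.2 in Leydig-like, 4.19 in endothelial-like, 1.32 in Sertoli-like cells and 1.05 in germ-like ones. *Hoxd11* had another order: 50.3 CPM (42.5 to 59.0) in coelomic epithelium-like, 29.5 in perivascular-like, 18.2 in peritubular myoid-like, 11.2 in interstitial-like, 6.81 in Leydig-like, 0.465 in Sertoli-like cells and 0.233 in germ-like ones, and 0 UMIs in endothelial-like cells, which allows up to 4.19 CPM (3 UMIs). The interstitial-like class pools clusters of 856, 293 and 207 cells, with *Hoxd11* at 5.37, 26.4 (20.3 to 33.7) and 14.9 CPM. The interval of the cluster of 293 cells overlapped those of the peritubular myoid-like and perivascular-like classes, so this order holds for the pooled class only. Beyond *Hoxd11* the signal ended, with 2 UMIs of *Hoxd12*, 1 of *Hoxd13* and, at the other end, 14 of *Hoxd1*.

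**Figure D3:**
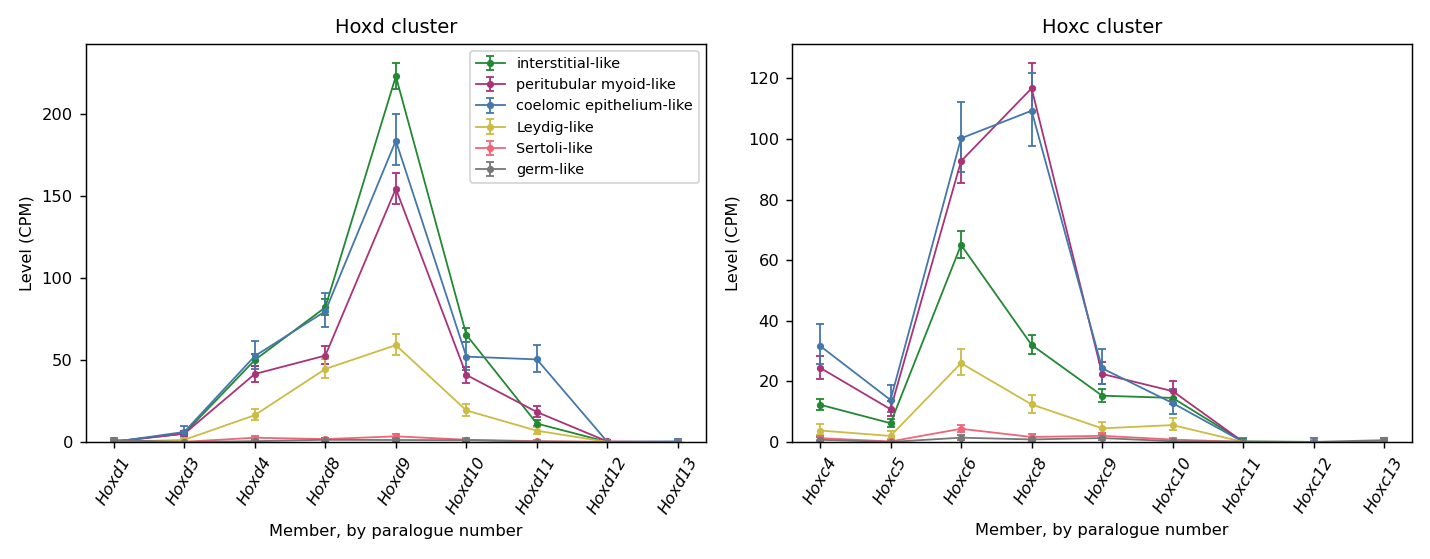
Level in CPM (y axis) of each *Hoxd* gene (left) and *Hoxc* gene (right) along the cluster by paralogue number, in 6 cell classes, with exact 95% intervals. *Hoxd* peaks at *Hoxd9* in these classes except the germ-like one, whose highest value is 1.28 CPM, and *Hoxc* peaks at *Hoxc8* in coelomic epithelium-like cells and in peritubular myoid-like cells and at *Hoxc6* in interstitial-like and Leydig-like cells.

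The promoters of *Hoxd9*, *Hoxd10* and *Hoxd12* are shown because these neighbours lie within 1 cluster and range from the highest Hox level to 2 UMIs. The sequences are from RefSeq (GRCm38.p6), plus strand, 5′ to 3′, up to 250 bases before the gene start, with CCAAT or TATAAA on either strand in capitals. The *Hoxd9* window is chr2:74697513-74697726, the *Hoxd10* window chr2:74691641-74691890 and the *Hoxd12* window chr2:74674763-74675012.
Hoxd9: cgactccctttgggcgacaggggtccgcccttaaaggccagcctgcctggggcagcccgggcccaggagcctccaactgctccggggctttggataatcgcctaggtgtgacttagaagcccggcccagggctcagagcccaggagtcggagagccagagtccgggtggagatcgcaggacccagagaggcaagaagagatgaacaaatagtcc
Hoxd10: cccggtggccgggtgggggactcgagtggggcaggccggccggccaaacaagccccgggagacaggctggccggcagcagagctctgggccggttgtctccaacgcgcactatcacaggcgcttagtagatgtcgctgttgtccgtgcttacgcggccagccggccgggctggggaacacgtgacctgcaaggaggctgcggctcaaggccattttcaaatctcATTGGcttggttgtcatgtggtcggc
Hoxd12: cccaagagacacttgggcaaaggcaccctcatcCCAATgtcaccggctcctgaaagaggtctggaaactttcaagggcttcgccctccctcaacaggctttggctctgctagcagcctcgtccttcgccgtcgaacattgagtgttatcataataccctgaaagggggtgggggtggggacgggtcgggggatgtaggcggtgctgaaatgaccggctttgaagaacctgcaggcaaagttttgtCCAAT
The barely detected *Hoxd12* has CCAAT at 2 places, *Hoxd10* has it once on the other strand, and the abundant *Hoxd9* has neither motif. Windows of 250 bases were found for 22 of the 39 genes, with 24 windows in all, and held a median of 12.5 CG pairs against 6 in all 32851 windows. CCAAT on either strand was in 58.3% of the Hox windows and 33.8% of all, TATAAA in 16.7% and 12.4%, GGGCGG in 41.7% and 32.7%, AGGTCA in 25% and 14.0%, and TGATTNAT in 8.33% and 2.82%. These are matches of letters in a window and are given as a description.

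In the gonadal somatic classes the HoxC cluster had its maximum at *Hoxc8* or *Hoxc6*, and in endothelial-like cells at *Hoxc9*, from 6 UMIs. *Hoxc8* was at 117 CPM (109 to 125.1) in peritubular myoid-like cells and 109 CPM (97.8 to 122) in coelomic epithelium-like cells, against 32.03 CPM (29.1 to 35.2) in interstitial-like cells, ratios of 3.65 (3.24 to 4.11) and 3.41 (2.95 to 3.95). Within the interstitial-like class, the clusters of 856, 293 and 207 cells had 25.2, 58.5 (49.3 to 69.0) and 29.2 CPM. Perivascular-like cells had 62.0 CPM, Leydig-like cells 12.4, Sertoli-like cells 1.63 and germ-like cells 0.815. In the 42 endothelial-like cells no *Hoxc8* UMI was found, which allows up to 4.19 CPM.

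*Hoxc6* differed less between the same classes, with 100.2 CPM (89.2 to 112) in coelomic epithelium-like, 92.7 (85.6 to 100.2) in peritubular myoid-like, 76.0 in perivascular-like and 65.0 (60.8 to 69.5) in interstitial-like cells. It was at 26.0 CPM in Leydig-like, 5.58 in endothelial-like, 4.34 in Sertoli-like cells and 1.40 in germ-like ones. *Hoxc4* and *Hoxc5* also had their highest value at the gonad surface, but their intervals overlapped those of peritubular myoid-like cells. These were 25.6 to 38.8 against 20.9 to 28.5 CPM for *Hoxc4* and 9.93 to 18.8 against 8.47 to 13.5 CPM for *Hoxc5*. *Hoxc4* was at 31.7 CPM in coelomic epithelium-like, 24.5 in peritubular myoid-like, 14.0 in perivascular-like, 12.3 in interstitial-like, 3.77 in Leydig-like, 1.24 in Sertoli-like cells and 0.698 in germ-like ones. *Hoxc5* was at 13.8, 10.8, 5.17, 6.18, 1.97, 0.155 and 0 CPM in these same classes, and both had 1.40 CPM, from 1 UMI, in endothelial-like cells.

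*Hoxc9* and *Hoxc10* had their highest level among the named classes in perivascular-like cells, the cells around vessels, and the unnamed cluster of 84 cells had 30.03 and 31.3 CPM. *Hoxc9* was at 27.3 CPM (19.2 to 37.7) there, 24.3 in coelomic epithelium-like, 22.4 in peritubular myoid-like, 15.3 in interstitial-like, 8.38 in endothelial-like, 4.48 in Leydig-like, 2.02 in Sertoli-like cells and 1.28 in germ-like ones. *Hoxc10* was at 24.4 CPM (16.8 to 34.2) in perivascular-like, 16.8 in peritubular myoid-like, 14.5 in interstitial-like, 12.8 in coelomic epithelium-like, 5.56 in Leydig-like, 1.40 in endothelial-like, 0.775 in Sertoli-like cells and 0.233 in germ-like ones. For both genes the perivascular-like interval overlapped those of the coelomic epithelium-like and the peritubular myoid-like class. With cells classed singly by their markers instead of by cluster, the perivascular-like values were 17.3 CPM for *Hoxc9* and 13.3 CPM for *Hoxc10*. *Hoxc11* had 3 UMIs, *Hoxc12* none and *Hoxc13* 5.

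*Hoxa* genes were low throughout. *Hoxa7* was the only one to reach 10 CPM in a class of at least 100 cells. Its level was 17.2 CPM (12.8 to 22.6) in coelomic epithelium-like, 16.2 (10.2 to 24.6) in perivascular-like, 9.18 in peritubular myoid-like, 5.29 in interstitial-like, 2.91 in germ-like, 2.51 in Leydig-like and 0.930 in Sertoli-like cells, and 30.7 CPM (19.3 to 46.5) in endothelial-like cells. *Hoxa5* was at 9.04 CPM in peritubular myoid-like cells, 3.69 times its level over all cells and the largest such ratio of any tested Hox gene in that class. *Hoxa9* and *Hoxa10* stayed between 5.40 and 8.12 CPM in coelomic epithelium-like, peritubular myoid-like and perivascular-like cells and at 1.94 and 2.01 CPM in interstitial-like cells. At the posterior end of the cluster, *Hoxa13* had 2 UMIs.

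In the HoxB cluster, *Hoxb2* and *Hoxb9* passed 10 CPM in a class of at least 100 cells. *Hoxb2* was at 22.9 CPM (15.5 to 32.5) in perivascular-like cells, 7.73 times its level over all cells, and at 6.71 in peritubular myoid-like, 4.62 in interstitial-like, 2.79 in endothelial-like, 1.69 in coelomic epithelium-like and 1.43 in Leydig-like cells. It had 0 UMIs in the 862 Sertoli-like cells (up to 0.233 CPM) and in the 249 germ-like cells (up to 0.349 CPM). Without the outlier filter its perivascular-like level was 36.2 CPM. *Hoxb3*, *Hoxb4*, *Hoxb5* and *Hoxb7* had between 82 and 139 UMIs, *Hoxb6* and *Hoxb8* 40 and 24, and at the ends *Hoxb1* had none, which allows up to 0.0552 CPM over the kept cells, and *Hoxb13* had 3.

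*Hoxb9* was the Hox gene of Sertoli-like cells. Its level there was 47.3 CPM (43.6 to 51.2), from 610 UMIs in 390 of 862 cells, and it was the only one of the 39 above 10 CPM in this class. Interstitial-like cells had 7.002 CPM (5.66 to 8.57), so *Hoxb9* was 6.75 times (5.43 to 8.48) as high in Sertoli-like cells while its paralogue *Hoxd9* was 65.3 times (48.6 to 90.1) as high in interstitial-like cells. *Hoxb9* was at 32.1 CPM in endothelial-like, 12.6 in perivascular-like, 11.1 in Leydig-like, 10.5 in coelomic epithelium-like, 9.33 in peritubular myoid-like and 0.233 in germ-like cells. The next Hox genes of Sertoli-like cells were *Hoxc6* at 4.34 and *Hoxd9* at 3.41 CPM.

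The difference between these classes was also seen in the share of cells with each paralogue. With each cell thinned to 5000 UMIs, 19.2% of 844 Sertoli-like cells had *Hoxb9* without *Hoxd9*, 1.07% had *Hoxd9* without *Hoxb9*, 0.474% had both and 79.3% neither. Of 1290 interstitial-like cells, 61.7% had *Hoxd9* without *Hoxb9*, 0.620% the reverse, 2.25% both and 35.4% neither. Whether the 2 genes exclude each other within a cell was not tested. In germ-like cells, taken as background, 0 of 243 thinned cells (0% to 1.51%) had *Hoxb9* and 0.823% had *Hoxd9*. Before thinning, 45.2% of Sertoli-like cells had a *Hoxb9* UMI, at a median of 14278 UMIs, and 81.6% of interstitial-like cells had a *Hoxd9* UMI.

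**Figure D4:**
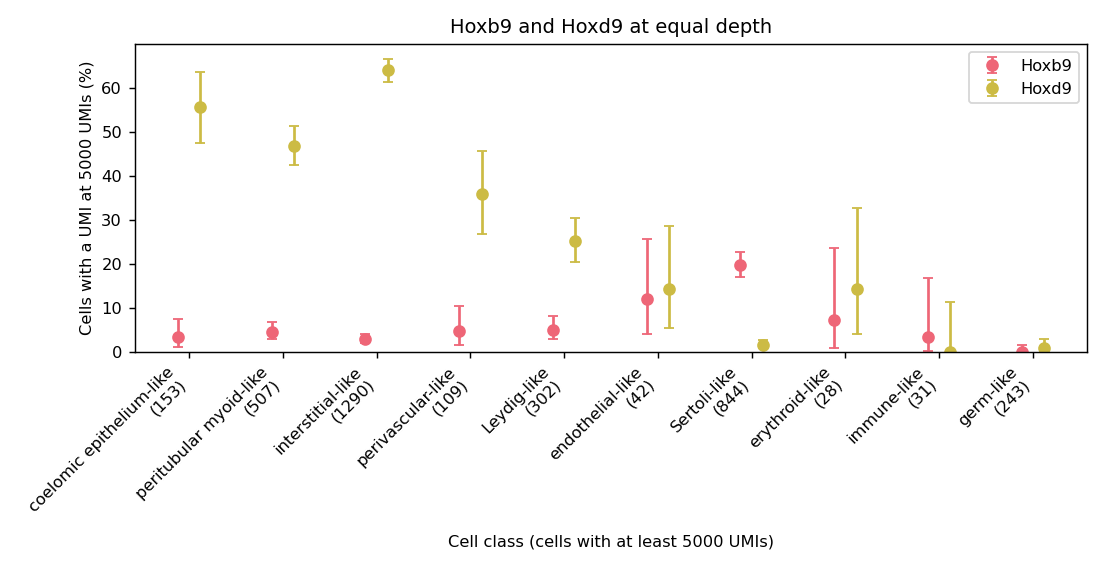
Percent of cells with at least 1 UMI of *Hoxb9* (red) or *Hoxd9* (yellow) after thinning each cell to 5000 UMIs (y axis), by cell class (x axis, cells with at least 5000 UMIs in brackets), with exact 95% intervals. Sertoli-like cells are the only class of over 100 cells with *Hoxb9* above *Hoxd9*, 19.7% against 1.54%.

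Against all genes, the Hox genes stood out in this comparison of classes. Of the 39 genes, 22 had at least 100 UMIs in the kept cells and could be compared, with 1 CPM added to each level; these 22 passed a minimum that favours genes high in large classes, so their counts are a description. Between interstitial-like and Sertoli-like cells, 19 of the 22 were at least 2-fold higher in interstitial-like cells, where 14.4% of 12209 genes were, and *Hoxb9* alone was at least 2-fold lower, where 14.3% of genes were. Their median log2 difference was 2.50 against −0.02 over all genes. Between the gonadal somatic classes and germ-like cells, 20 of the 22 were at least 2-fold higher in somatic cells and none lower, against 34.5% and 14.2% of all genes.

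Some Hox genes were higher in the surface, muscle-like and perivascular-like classes than in interstitial-like cells. Members at 10 CPM or more numbered 13 in coelomic epithelium-like, 11 in peritubular myoid-like, 13 in perivascular-like and 10 in interstitial-like cells. The share of all genes at this level was not counted, so these numbers are a description and are not read as particular to Hox genes. Members with over 3 UMIs numbered 24, 27, 24 and 25 in the same order. These cannot be compared directly, because 3 UMIs stand for 1.01, 0.437, 2.21 and 0.223 CPM in these classes. In peritubular myoid-like against interstitial-like cells, 5 of 22 Hox genes were at least 2-fold higher and 0 lower, against 3.23% and 4.14% of all genes, and *Hoxc8*, *Hoxa3* (4.22 times) and *Hoxa5* (3.91 times) led. In coelomic epithelium-like cells 9 were higher and *Hoxb2* alone lower, against 6.78% and 7.04%. *Hoxb4*, at 8.44 against 1.56 CPM, and *Hoxd11*, at 4.50 times (3.56 to 5.68), differed most there. In perivascular-like cells 7 were higher and *Hoxd9* alone lower, against 3.68% and 5.72%.

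Endothelial-like cells, which line the vessels, had another order of Hox genes, measured on 42 cells and 191 Hox UMIs. *Hoxd8* (39.1 CPM), *Hoxb7* (33.5), *Hoxb9* (32.1), *Hoxa7* (30.7), *Hoxd4* (27.9), *Hoxd9* (18.2) and *Hoxb4* (14.0) reached 10 CPM. Of these, *Hoxd8*, *Hoxd4* and *Hoxd9* were lower than in interstitial-like cells, at 47.7%, 56.0% and 8.14% of the level there. *Hoxb7* was at 13.1 times its level over all cells, the largest ratio of any compared Hox gene in any class. Against interstitial-like cells 6 of 22 were at least 2-fold higher and 10 lower, against 10.1% and 21.4% of all genes. The lower ones included *Hoxc8*, *Hoxc6* and *Hoxd11*. The 6 interstitial markers stood in endothelial-like cells at 7.49% of their interstitial-like level.

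Leydig-like cells formed 2 clusters, and the Hox level was lower in the one with more steroidogenic RNA. The cluster led by *Nppc* and *Vsnl1* (178 cells) had 310.2 CPM of Hox RNA (288 to 333). The cluster led by *Clps*, *Cyp11a1*, the side-chain cleavage enzyme, and *Star*, the cholesterol carrier (127 cells), had 153 CPM (140.1 to 168). *Hoxd9* was at 223 CPM in interstitial-like cells, 99.01 (86.9 to 112) in the *Nppc* cluster and 28.2 (22.7 to 34.7) in the steroidogenic one. *Hoxd8* went from 82.0 to 66.01 to 27.9 CPM, and *Hoxc6* from 65.0 to 31.8 to 21.6 CPM. Over the same 3 sets the 6 interstitial markers were at 2238, 519 and 175 CPM and the 7 erythroid markers at 332, 1818 and 10552 CPM, and the part of such RNA in the Hox steps was not tested.

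Not every Hox gene followed these steps. *Hoxc8* was lower in the *Nppc* cluster, at 6.60 CPM (3.77 to 10.7), than in the steroidogenic one, at 16.8 CPM (12.6 to 22.0). *Hoxd11* was likewise at 2.89 CPM against 9.83 CPM in the steroidogenic cluster, close to the 11.2 CPM of interstitial-like cells, and *Hoxb9* was at 14.0 and 8.88 CPM, of which only the *Nppc* cluster was above the interstitial-like level beyond the intervals (2.003 times, 1.31 to 2.99). Against interstitial-like cells, 16 of 22 Hox genes were at least 2-fold lower in the steroidogenic cluster and 0 higher (24.6% and 10.5% of all genes), and 12 were lower and 0 higher in the *Nppc* cluster (9.93% and 5.45%). The median log2 differences were −1.68 and −1.03, against −0.31 and −0.09 over all genes.

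Germ-like cells had 145 Hox UMIs in 249 cells, the deepest class. *Hoxa7* gave the most, 25 UMIs in 21 cells, or 2.91 CPM (1.88 to 4.29). This was 55.0% (33.4 to 87.9) of its interstitial-like level, whereas the other 13 Hox genes that reached 10 CPM in a class of at least 100 cells stood at 0 to 8.38% of theirs. Some Hox genes with few UMIs had most of them in germ-like cells, 10 of 14 for *Hoxd1*, 5 of 5 for *Hoxc13*, 3 of 3 for *Hoxb13* and 2 of 2 for *Hoxa13*, but others did not, such as *Hoxa2* with 0 of 12 and *Hoxb8* with 1 of 24. The exact intervals of the germ-like share were 41.9% to 91.6% for *Hoxd1*, 47.8% to 100% for *Hoxc13*, 29.2% to 100% for *Hoxb13* and 15.8% to 100% for *Hoxa13*. Germ-like cells were 6.53% of the cells but held many more UMIs per cell than any other class, so their share of all UMIs was larger. Whether their depth accounts for these few UMIs was not tested.

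The mesonephros lies against the gonad, so cells of it could be in the suspension. No cluster met the lists of 8 mesonephric epithelium or 5 mesonephric mesenchyme markers. The unnamed cluster of 84 cells had the highest mean log2 ratio for the mesenchyme list (0.574), with 2 of its 5 markers in at least 25% of cells. With cells classed singly by their markers, 22 were classed as mesonephric epithelium-like and 165 as mesonephric mesenchyme-like. Of the epithelium list, *Wnt9b* had 1 UMI and *Cdh16* none, 53 cells had at least 2 of the 8 markers and 6 cells at least 3, and these 6 cells held 3 Hox UMIs. The list stood at 53.2 CPM in germ-like cells, against 0.359 to 8.44 CPM in the other named classes. It was highest, at 209 CPM, in the unnamed cluster led by *Pax8*, itself on the list, where 6 of the 8 markers had no UMI. Because germ-like cells also held these markers, cells with several of them are not read as mesonephric, and whether some are was not tested. Of the mesenchyme list, 283 cells had at least 2 of the 5 markers and held 2602 Hox UMIs, and 14 cells had at least 3 and held 245. *Tbx2*, which had 6118 UMIs in 2172 cells, gave most of the UMIs of that list. *Osr1* was seen in 246 cells and *Gata2* in 89. Whether some of the cells with several of these markers are mesonephric was not tested, and no mesonephric Hox profile is given.

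The 2 unnamed clusters differed in their Hox genes. A cluster of 13 cells led by *Pax8* and *Rnase12*, with 2 of 5 rete testis markers in at least 25% of its cells, had 177 CPM of Hox RNA from 28 UMIs. *Hoxb9* gave 15 of these, or 94.9 CPM (53.1 to 156), the highest *Hoxb9* level of any cluster, and no *Hoxd8* UMI was found. A cluster of 84 cells with *Kcnk2* and *Gdf10* among its leading genes had 625 CPM (571 to 684), with *Hoxd9* at 148, *Hoxd10* at 82.3, *Hoxc10* at 31.3 and *Hoxc9* at 30.03 CPM.

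Few Hox genes were detected per cell, and the number depended on depth: the interstitial-like median was 1 at 3000 UMIs per cell. At 5000 UMIs per cell, a median of 3 of the 39 genes was seen in coelomic epithelium-like cells, 2 in interstitial-like, peritubular myoid-like and perivascular-like cells, 1 in Leydig-like and endothelial-like cells and 0 in germ-like and Sertoli-like cells. At most 8 were seen in a cell. No Hox UMI was seen in 3.92% of coelomic epithelium-like, 7.29% of interstitial-like, 39.7% of Leydig-like, 72.2% of Sertoli-like and 91.8% of germ-like cells. Thinning to 5000 UMIs left out 53 of 81 erythroid-like cells and at most 66 cells of any other class.

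*Hoxd11* was concentrated in few cells. Its 525 UMIs lay in 199 cells, 2.64 per cell with a UMI and up to 15 in a cell. *Hoxc9*, with 563 UMIs, was spread over 421 cells (1.34 per cell), and *Hoxc4*, with 497 UMIs, over 399 (1.25). Of the 14 Hox genes that reached 10 CPM in a class of at least 100 cells, only *Hoxd9*, with 5264 UMIs, had more per cell with a UMI (2.68). Cells with a *Hoxd11* UMI were 69 of 1356 interstitial-like, 45 of 517 peritubular myoid-like, 34 of 161 coelomic epithelium-like and 15 of 110 perivascular-like cells, against 4 of 862 Sertoli-like cells.

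Within these 4 classes, cells with a *Hoxd11* UMI were compared with cells of the same class without one. This comparison was chosen after the values had been seen, and cells are not replicates, so it is given without a test. The interstitial-like class pools clusters in which 22 of 856, 28 of 293 and 19 of 207 cells had a *Hoxd11* UMI. Its cells with and without *Hoxd11* therefore differ in their mix of clusters, and the part of this in the ratios was not tested. In peritubular myoid-like cells *Hoxd10* was at 108 CPM with and 33.4 CPM without *Hoxd11*, 3.24 times (2.45 to 4.24), and *Hoxc10* at 55.4 and 12.5 CPM, 4.45 times (2.93 to 6.64). *Hoxa9* was 5.67 times (2.90 to 10.8) and *Hoxa10* 6.01 times (3.12 to 11.3) as high. The intervals of *Hoxd9* (0.981 times, 0.793 to 1.202), *Hoxd8* (0.846), *Hoxc8* (0.809) and *Hoxc6* (0.921) included 1. The anterior gene *Hoxa3* was higher with *Hoxd11*, at 17.5 against 4.70 CPM, 3.73 times (1.73 to 7.53). Its ratio was 4.80 (1.10 to 20.9) in perivascular-like cells, and in coelomic epithelium-like and interstitial-like cells, at 0.602 and 0.951, the intervals included 1.

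*Hoxa9*, *Hoxa10*, *Hoxc10* and *Hoxd10* had intervals above 1 in the other 3 classes as well. In coelomic epithelium-like cells *Hoxd10* was 4.33 times (3.12 to 6.04), *Hoxa9* 4.41 times, *Hoxa10* 4.64 times and *Hoxb9* 6.56 times (3.00 to 15.2) as high with *Hoxd11*, and *Hoxd9* was 0.716 times (0.564 to 0.899). In interstitial-like cells *Hoxc10* was 4.70 times (3.26 to 6.65), *Hoxc9* 3.77 times (2.57 to 5.41), *Hoxa10* 5.99 times and *Hoxd10* 1.58 times as high, and *Hoxd9* was 0.796 times (0.664 to 0.948). In the 15 perivascular-like cells *Hoxa10* was 8.40 times and *Hoxd9* 0.430 times as high, but these cells also held 21521 CPM of erythroid markers against 179 CPM without *Hoxd11*.

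**Figure D5:**
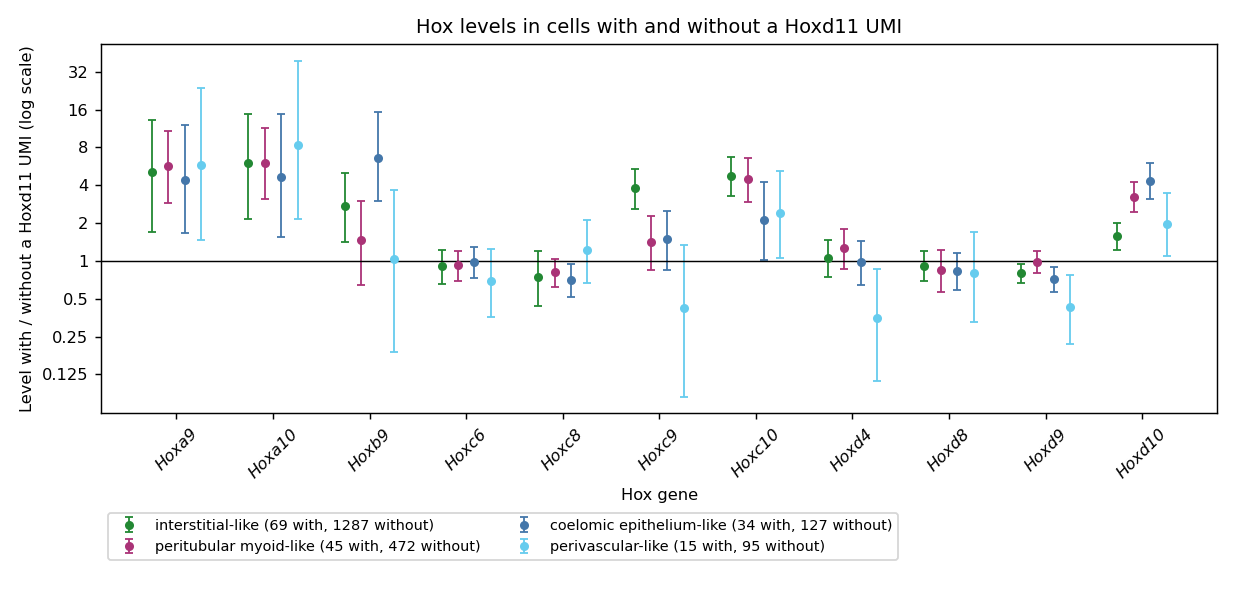
Ratio of the level in cells with at least 1 *Hoxd11* UMI to the level in cells of the same class with none (y axis, log scale), for 11 Hox genes (x axis) in 4 cell classes, with exact 95% intervals. *Hoxa9*, *Hoxa10*, *Hoxc10* and *Hoxd10* lie above 1 in all 4 classes, and *Hoxc6* and *Hoxd8* have intervals that include 1 in all 4.

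Among all genes *Hoxa9*, *Hoxa10*, *Hoxc10* and *Hoxd10* stood at or near the top. When the 12208 other genes with at least 100 UMIs were ordered by their mean log2 ratio over the 4 classes, with 5 CPM added to each level, the upper 4 were *Hoxa10* (1.54), *Hoxa9* (1.42), *Hoxc10* (1.38) and *Hoxd10* (1.26), which lie on 3 chromosomes. *Cdo1* (1.13) and *Hmga2* (0.93), a chromatin protein of embryonic cells, came next, and *Hoxb9* was in place 9. The other paralogues numbered 9 stood lower, *Hoxc9* in place 387 (0.38) and *Hoxd9* in place 11714 (−0.49). With 1 CPM added, *Hoxa10*, *Hoxa9*, *Hoxc10* and *Hoxd10* were in places 1, 2, 4 and 8. *Cdo1* was then in place 9, *Hoxb9* in place 20 and *Hmga2* in place 38. In peritubular myoid-like cells 5 of the 21 compared Hox genes were at least 2-fold higher with *Hoxd11* and 0 lower, against 2.42% and 5.63% of all genes. The counts were 6 and 2 in coelomic epithelium-like cells (3.26% and 6.79%), 5 and 0 in interstitial-like cells (1.72% and 5.19%), and 5 and 4 in perivascular-like cells (6.4% and 17.9%).

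Depth and the markers of other cells were compared in the same split. Median UMIs were 11825 with and 11572.5 without *Hoxd11* in peritubular myoid-like cells, 16585.5 and 15965 in coelomic epithelium-like cells, 10119 and 9267 in interstitial-like cells, and 13393 and 10932 in perivascular-like cells. The 5 mesonephric mesenchyme markers summed to 194 and 181 CPM in peritubular myoid-like, 143 and 117 CPM in coelomic epithelium-like, 290.2 and 278 CPM in interstitial-like and 227 and 269 CPM in perivascular-like cells. The 6 peritubular myoid markers were at 1781 CPM in peritubular myoid-like cells with *Hoxd11* and 3298 CPM in those without, and the 7 erythroid markers at 191 and 1116 CPM there and at 176 and 2523 CPM in coelomic epithelium-like cells. In perivascular-like cells with and without *Hoxd11*, the 6 perivascular markers were at 557 and 1114 CPM and the 6 peritubular myoid markers at 3356 and 2176 CPM, and these cells enter the mean over 4 classes. The part of these markers in the ratios was not tested. Of the annotated 3′ end of *Hoxd11*, 33.2% is shared with the overlapping gene *Gm28309*, which has no row in the matrix.

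The TALE cofactors are PBX and MEIS proteins that bind DNA with HOX proteins, and their genes were counted in the same way. Of the 9 cofactor genes, 7 were at least 2-fold higher in interstitial-like than in Sertoli-like cells and 0 lower, with a median log2 difference of 1.67. Of all genes, 14.4% were higher and 14.3% lower. Against interstitial-like cells, 1 was higher and 2 lower in coelomic epithelium-like cells (median log2 difference −0.61), 1 higher and 0 lower in peritubular myoid-like cells, and none either way in perivascular-like cells. In the same order, 6.78%, 3.23% and 3.68% of all genes were higher and 7.04%, 4.14% and 5.72% lower. *Meis2* was at 334 CPM in peritubular myoid-like, 272 in coelomic epithelium-like, 87.7 in interstitial-like, 19.9 in Leydig-like and 6.28 in Sertoli-like cells. In the unnamed cluster of 84 cells, *Meis1* was at 236 and *Meis2* at 508 CPM, and *Meis1* was at 1.40 CPM in endothelial-like cells. In the steroidogenic Leydig-like cluster 7 of the 9 were at least 2-fold lower than in interstitial-like cells, as were 6 in endothelial-like cells, and 0 higher in either. Of all genes, 24.6% and 21.4% were lower there and 10.5% and 10.1% higher.

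The 18 genes of the Polycomb and trithorax groups are chromatin regulators known to keep Hox genes off or on. Between interstitial-like and Sertoli-like cells 0 were at least 2-fold higher and 2 lower, *Cbx8* among them, with a median log2 difference of 0.00, against 14.4% and 14.3% of all genes. Between the somatic classes and germ-like cells 4 were higher and 5 lower, against 34.5% and 14.2% of all genes, and between the steroidogenic Leydig-like cluster and interstitial-like cells 1 was higher and 5 lower, against 10.5% and 24.6%. *Ctcf*, which marks boundaries within the clusters, was at 149 CPM in Sertoli-like and in interstitial-like cells and 54.3 in germ-like cells, *Ezh2*, the Polycomb methyltransferase, at 147, 155 and 62.3 CPM, and *Kmt2a*, a trithorax methyltransferase, at 68.1, 70.9 and 92.1 CPM. Of *Cdx1*, *Cdx2*, *Cdx4*, *Evx1* and *Evx2*, which act upstream of or lie beside the clusters, none had 100 UMIs.

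Of 5 factors of the early gonad, *Lhx9* was at 425 CPM in coelomic epithelium-like, 345 in perivascular-like, 302 in peritubular myoid-like, 269 in interstitial-like, 30.3 in Leydig-like and 3.49 in Sertoli-like cells. *Wt1* was at 351 CPM in coelomic epithelium-like and 273 CPM in Sertoli-like cells but 33.8 CPM in interstitial-like cells, and *Gata4* at 80.0, 168 and 75.7 CPM. With 10 classes that share 1 library these orders are given as a description.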

How the data were processed

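The authors deposited raw UMI counts per gene and barcode from 1 Chromium 3′ v3 library, made with Cell Ranger on mm10 (GRCm38); the submitters' notes name versions 3.0.2 and 3.1.0, the file header 3.1.0. Barcodes with under 200 genes (372 of 5421), 204 predicted doublets and 1031 cells over 3 median absolute deviations from the medians of UMIs, genes, or mitochondrial or ribosomal protein share were left out. Cells were clustered with Seurat 5.3.0 and sctransform 0.4.2 (R 4.3.3, 30 components, resolution 0.8) without Hox genes, and clusters were named from marker lists. UMIs were summed per class (Python 3.11.15, scipy 1.17.1), with exact Poisson intervals for levels and exact binomial (Clopper-Pearson) ones for shares. Fold counts used genes with at least 100 UMIs and 1 CPM added. With 1 library no test was made. Hox genes with at least 10 CPM in a class of at least 100 cells were described in full, and up to 3 of the highest genes of other lists were named; some genes that these rules name are not reported here. The genes, lists and comparisons were chosen with earlier results of these data known. Of the annotated 3′ ends of *Hoxd3* and *Hoxd4*, 56.3% and 30.9% overlap *Gm28230* on the same strand, a gene with 17 UMIs. Reads from these stretches may not all be counted for *Hoxd3* and *Hoxd4*. Their levels may therefore be too low, which was not tested. Scripts were tested on simulated data.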

Additional observations from a re-analysis of the deposited data

Results flagged for a closer look

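The 372 barcodes with fewer than 200 genes, which no comparison used, held 7 Hox UMIs among 1409901 UMIs, or 4.96 CPM (1.996 to 10.2). This lies above the limit of 3 UMIs that a count of 0 allows. Hemoglobin transcripts were 46.8% of their UMIs. Without hemoglobin and mitochondrial transcripts 56912 UMIs were left, of which the 7 Hox UMIs are 123 CPM.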

How the results depend on the processing

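With no doublets removed, the summed Hox level was 92.4 CPM in Sertoli-like and 27.3 CPM in germ-like cells. The interstitial-like level was 640.3 CPM at resolution 1.2 and 672 CPM with cells classed singly by their markers. As a mean of CPM over cells, the Sertoli-like level was 78.3 and the interstitial-like level 631 CPM. The cause of these shifts was not tested. Of 140 levels of named Hox genes under an alternative, 131 stayed within the interval of the value reported, and 3 moved by over 1.5 times, all in perivascular-like cells: *Hoxb2* to 36.2 CPM with no outlier filter, *Hoxc9* to 17.3 and *Hoxc10* to 13.3 CPM with cells classed singly. These 140 levels do not cover every class level printed above under each alternative. Thinned to 3000 UMIs, 13.5% of Sertoli-like cells had *Hoxb9* and 49.9% of interstitial-like cells had *Hoxd9*. The split by at least 2 *Hoxd11* UMIs, added after the data were seen, kept the ratios printed above within their intervals. Some other ratios left theirs, such as *Hoxc8* in interstitial-like cells, at 0.338 against 0.439 to 1.197. With this split the interval of *Hoxc10* in coelomic epithelium-like cells included 1 (1.72 times, 0.705 to 3.84). So did those of *Hoxd10* in perivascular-like cells (0.917 to 3.48) and *Hoxa9* in interstitial-like cells (0.994 to 17.6). The interval of *Hoxd9* in interstitial-like cells also included 1 (0.901 times, 0.706 to 1.135). No paired analysis was possible because there was 1 library.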
